A study of Macaca mulatta with 5 samples.

Results

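COPA and COG3 are genes of vesicle traffic at the Golgi apparatus, and they were chosen by gene identifier (ENSMMUG00000021854 and ENSMMUG00000018409), a rule that itself uses no measured value. They are 2 of the 28633 gene identifiers in the files, with 3 of the 51763 transcripts. The 5 libraries came from cerebellum, kidney, lung, heart and spleen of male rhesus macaques (Macaca mulatta), each tissue being represented by 1 strand-specific library of poly(A)-positive RNA, without replicates. Cerebellum, kidney, lung and heart came from the same animal according to the study, whereas the animal behind the spleen library is not given in the sources used here, and the labels state neither age nor genotype. The question behind the series is how RNA editing, the conversion of adenosine to inosine in transcripts, is distributed over tissues. COPA and COG3 are among the genes for which the study lists a coding site, each replacing isoleucine by valine, and the present data give the expression of the genes that carry these sites. Editing levels were not analysed here.

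COPA encodes the alpha subunit of coatomer, the protein complex of the COPI coat. COPI vesicles carry proteins back from the Golgi to the endoplasmic reticulum and between Golgi cisternae, and the alpha subunit binds dilysine signals at the tails of the proteins to be retrieved. COG3 encodes a subunit of the conserved oligomeric Golgi (COG) complex, a tether that catches such returning vesicles at the Golgi membrane and is needed for normal protein glycosylation. Both complexes are used by nearly every cell type, and the products of both genes work in complexes with fixed partners.

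Expression was read as RPKM, the reads of a transcript per kilobase of exon, scaled to the properly mapped reads of the library. The files gave 48306898 to 81517974 properly mapped reads per library. The intervals given below are 95% Wilson intervals of the read number, or exact conditional intervals for a ratio of 2 read numbers, and they cover counting error only, so they say nothing of the spread between animals. For the member transcripts 3 reads, taken as the smallest level the depth can show, correspond to at most 0.0153 RPKM. The reads summed over transcripts were 47.9% of the properly mapped reads in heart and 71.3% to 91.5% in the other tissues, and the upper quartile of RPKM was 3.99 in heart against 7.04 to 9.85 elsewhere. The fixed tissue markers that could be matched had their highest level in the labelled tissue for 5 of 5 genes in kidney, 5 of 5 in lung, 3 of 3 in heart, 5 of 5 in spleen and 4 of 5 in cerebellum. The exception was CALB1, the calcium buffer calbindin, with 488 RPKM in kidney and 108 in cerebellum.

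COPA was a highly expressed gene in every tissue. It is represented by a longer transcript (IMMRT10011003212, chromosome 1, 138910434 to 138961438 on rheMac2, exon length 5130 bp) and a shorter one (IMMRT10001003210, 138910434 to 138930995, exon length 4059 bp), which begin at the same coordinate. The coding site that the study lists for COPA is on the minus strand. It falls within the span of the longer transcript and outside that of the shorter one, so the span of the shorter transcript is the 3′ part of the gene. Exon coordinates are not given, and neither is whether reads in shared exons were counted on both transcripts.

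On the longer transcript, COPA was highest in lung, at 32.4 RPKM (95% interval 31.8 to 32.9, 12921 reads), and spleen had 30.8 (30.2 to 31.4, 10613 reads). Cerebellum followed with 28.5 RPKM (28.0 to 29.0, 11908 reads), kidney with 25.6 (24.9 to 26.2, 6333 reads) and heart with 13.2 (12.9 to 13.7, 4304 reads). On this scale lung, spleen, cerebellum and kidney lay close together and heart stood apart below them, and no neighbours in the order had overlapping intervals. On the shorter transcript, whose summed RPKM over the 5 tissues was higher (136 against 130) and which was therefore the main row of the gene, lung had 33.5 RPKM (10571 reads), cerebellum 32.3 (10678 reads), spleen 31.5 (8583 reads), kidney 25.1 (4923 reads) and heart 13.9 (3569 reads). Here cerebellum moved up to second place, and its interval (31.7 to 32.9) overlapped those of lung (32.8 to 34.1) and spleen (30.8 to 32.2), so these 3 tissues lay close to each other. The ratio of lung to cerebellum was 1.04 (1.01 to 1.07) and that of cerebellum to spleen 1.02 (0.995 to 1.05), the latter within counting error. Of the 15688 genes that reached 1 RPKM in at least 1 tissue, between 89.5% (kidney) and 93.6% (cerebellum) had a lower level than COPA in the same library.

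COG3 was expressed at a lower level and less evenly. Its only transcript (IMMRT10000035626, chromosome 17, 24357570 to 24429268, exon length 4513 bp) was highest in spleen, at 8.20 RPKM (7.88 to 8.53, 2484 reads), and lung had 7.58 (7.30 to 7.88, 2662 reads) and kidney 6.10 (5.78 to 6.43, 1329 reads). Cerebellum had 3.16 RPKM (2.98 to 3.35, 1162 reads) and heart 2.19 (2.03 to 2.37, 626 reads). Spleen, lung and kidney were thus the higher tissues and cerebellum and heart the lower ones, and the intervals of neighbouring tissues did not overlap. COG3 lay near the middle of the expressed genes, with 48.8% of them below it in cerebellum and 57.1% to 63.0% below it in the other tissues. The list of lymphocyte and leukocyte markers moved with COG3 over part of this order. Summed over its 5 matched genes it was 654 RPKM in spleen and 48.7 in lung, against 2.88 in kidney, 0.74 in heart and 0.40 in cerebellum, and its part in the COG3 levels was not tested. In such tissue libraries, fewer cells of a type and less RNA per cell cannot be told apart.

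**Figure D1:**
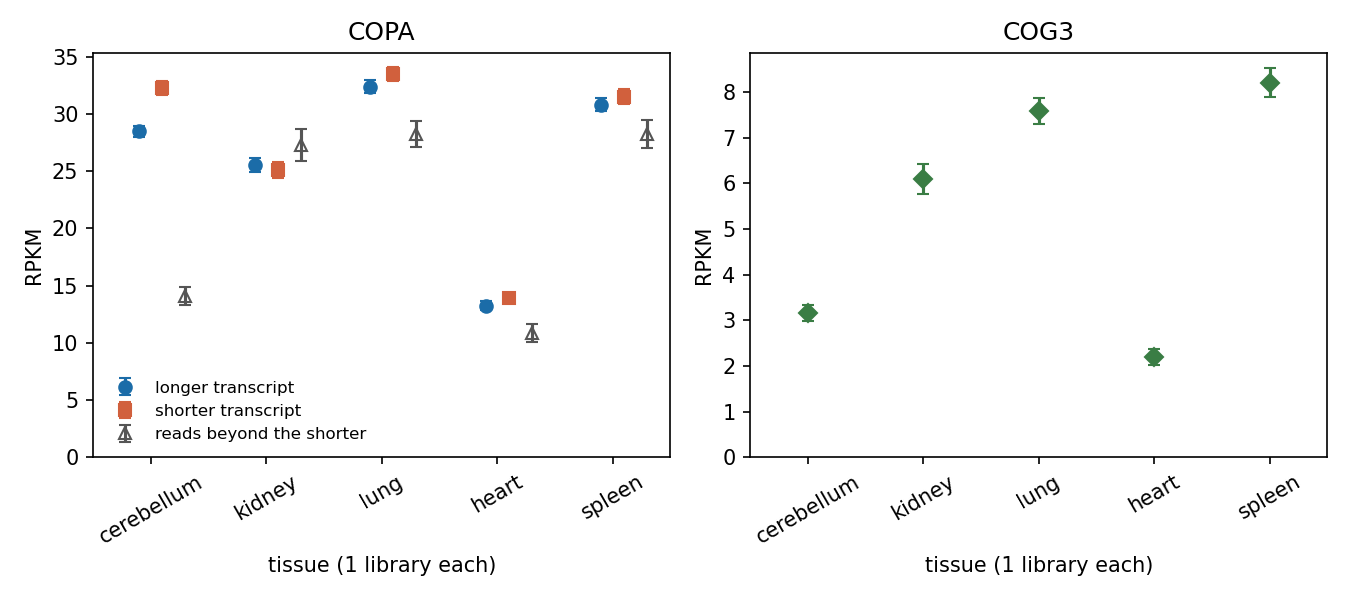
RPKM of COPA (left) and COG3 (right) in the 5 tissues, with 95% Wilson intervals of the read number as bars. For COPA, circles are the longer transcript, squares the shorter one and open triangles the reads counted on the longer transcript beyond those on the shorter, over the difference in exon length. COPA was lowest in heart on each of these measures, and COG3 was lowest in heart and cerebellum. The triangle of cerebellum, at 14.1 RPKM, lies far below the other symbols of that tissue.

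The 2 transcripts of COPA differed most in cerebellum. The shorter transcript had 1.13 times the RPKM of the longer one in cerebellum, 1.05 times in heart, 1.03 times in lung, 1.02 times in spleen and 0.98 times in kidney. Its share of the summed RPKM of the gene was accordingly 53.1% in cerebellum and 49.6% to 51.2% in the other tissues. The highest of these ratios was 1.15 times the lowest. Among 431 genes with exactly 2 transcripts, nested spans with 1 shared end and at least 1 RPKM in every tissue, the median of this range was 1.05 times, and 29.7% of the genes had a larger range than COPA. Cerebellum had the highest ratio of shorter to longer transcript at 30.6% of these genes.

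The same difference can be expressed as a level over the rest of the longer transcript. If all exons of the shorter COPA transcript are part of the longer one, which is not given, the longer transcript had 1071 bp of its own. The measure also assumes that reads in shared exons were counted on both transcripts. The reads beyond those of the shorter transcript were 2350 in lung and 2030 in spleen, against 1230 in cerebellum, 1410 in kidney and 735 in heart. Over 1071 bp this gave 28.2 RPKM in lung (27.1 to 29.4), 28.2 in spleen (27.0 to 29.5) and 27.3 in kidney (25.9 to 28.7), whereas cerebellum had 14.1 RPKM (13.3 to 14.9) and heart 10.8 (10.1 to 11.7). Relative to the shorter transcript of the same library, this stretch was at 0.44 in cerebellum, against 0.78 in heart, 0.84 in lung, 0.90 in spleen and 1.09 in kidney. On these assumptions, the part of the longer transcript beyond the shorter one was covered less densely than the shorter transcript in cerebellum. Without exon coordinates, the place of this part relative to the coding site is not known. The other tissues came closer to even coverage. The choice of this measure was made after the values had been seen.

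Differences between tissues were described by the ratio of RPKM, with 2-fold as the size that was called, since 1 library per tissue allows no test. COPA, by its shorter transcript, was 2.41 times as high in lung as in heart (interval 2.32 to 2.51), 2.32 times in cerebellum as in heart (2.24 to 2.41) and 2.27 times in spleen as in heart (2.18 to 2.36). The ratio of kidney to heart was 1.81 (1.73 to 1.89), below 2-fold, and the largest ratio that did not involve heart was 1.33, for lung over kidney. The share of the 15688 expressed genes at least 2-fold higher than in heart was 63.7% for lung, 43.4% for cerebellum and 60.2% for spleen, so that the lower level of COPA in heart was shared with much of the transcriptome. Between the highest and the lowest tissue, 90.6% of the 7888 genes with at least 1 RPKM in every tissue were past 2-fold. On RPKM + 0.1 this range was 2.40 for COPA and 3.62 for COG3, with a median of 4.04 over these genes, 82.9% of which had a larger range than COPA and 57.3% a larger range than COG3.

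COG3 was at least 2-fold different in more pairs. It was 3.74 times as high in spleen as in heart (3.43 to 4.09), 3.46 times in lung as in heart (3.17 to 3.78) and 2.78 times in kidney as in heart (2.53 to 3.07). Between kidney and heart, 49.9% of the genes were called in this direction. Compared with cerebellum, COG3 was 2.60 times as high in spleen (2.42 to 2.79) and 2.40 times in lung (2.24 to 2.57), where 37.8% and 38.0% of the genes were called, and 1.93 times in kidney (1.78 to 2.09). Cerebellum itself was 1.44 times as high as heart (1.31 to 1.59). These pairs share the heart or the cerebellum library and are not independent of each other.

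Most of these ratios depended on how the libraries were scaled to each other. Properly mapped reads are the scale of the deposited RPKM. Upper quartile scaling, median-of-ratios size factors and TMM (trimmed mean of M values) instead raised heart by 0.86 to 1.03 on the log2 scale relative to the mean of the 5 libraries and lowered spleen by 0.44 to 0.52. Under these 3 scalings, COPA by its shorter transcript was highest in cerebellum, at 33.2 to 34.5 scaled RPKM. The lowest tissue was kidney or spleen, at 21.9 to 22.5. The highest-to-lowest ratio of COPA was then 1.48 to 1.57, so that no pair reached 2-fold, and heart lay above kidney and spleen. Cerebellum was also highest by the longer transcript. The reads beyond the shorter transcript were not rescaled. As deposited, they put cerebellum (14.1 RPKM) well below kidney, lung and spleen (27.3 to 28.2), so its first place depended on the transcript measure. COG3 was lowest in cerebellum under the 3 scalings, at 3.25 to 3.38 scaled RPKM, and heart followed at 3.97 to 4.47. Its highest-to-lowest ratio was 1.69 to 1.90, below 2-fold, and the highest tissue was spleen or lung. The place of heart at the bottom of both genes therefore held on the deposited scale only, whereas the low place of COG3 in cerebellum relative to kidney, lung and spleen was present on all 4 scales.

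**Figure D2:**
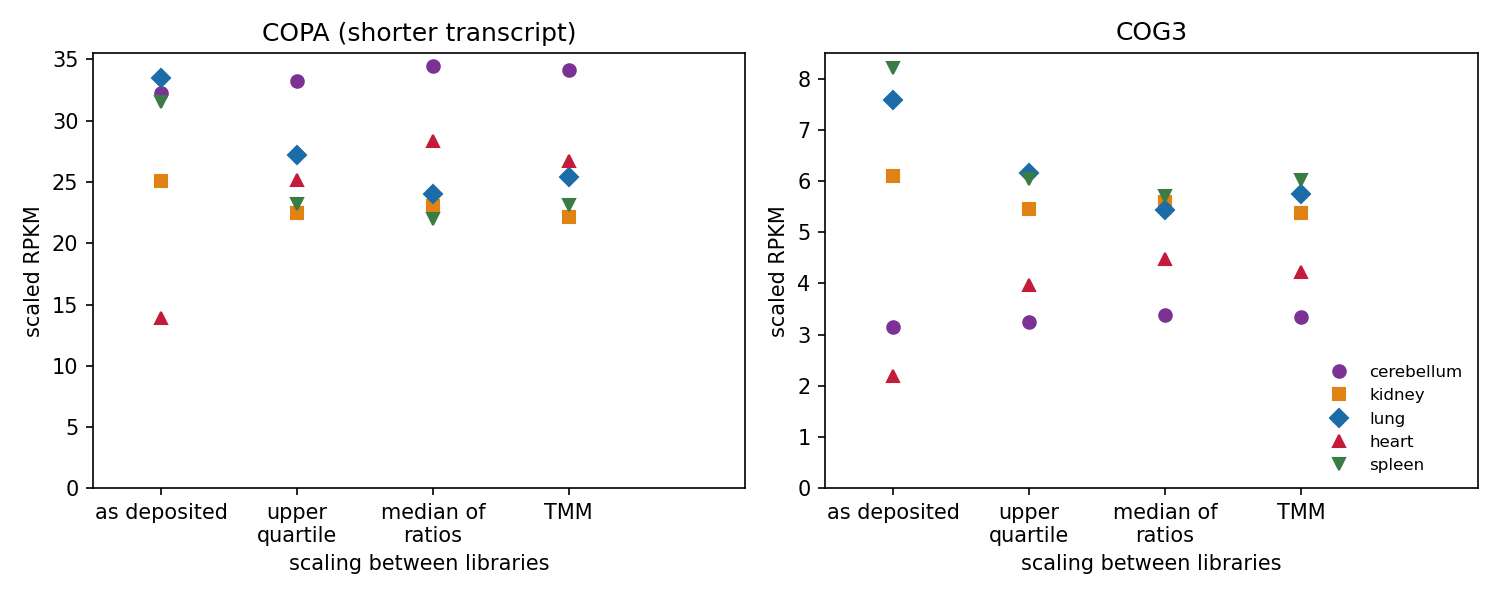
Levels of COPA (shorter transcript, left) and COG3 (right) in the 5 tissues, 1 point per library, as deposited and under upper quartile, median-of-ratios and TMM scaling (multipliers with a geometric mean of 1). Heart is the lowest tissue as deposited for both genes, at 13.9 and 2.19 RPKM, and lies between the other tissues under the other scalings, where cerebellum is highest for COPA and lowest for COG3.

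A ratio of the 2 genes within a library is free of the scaling between libraries. COPA exceeded COG3 in every tissue, and by most in cerebellum. By the shorter COPA transcript the ratio of RPKM was 10.2 in cerebellum (9.62 to 10.9), followed by heart with 6.34 (5.82 to 6.91). Lung was at 4.42 (4.23 to 4.61), kidney at 4.12 (3.88 to 4.38) and spleen at 3.84 (3.67 to 4.02). Cerebellum and heart stood above the other tissues and apart from each other, while the intervals of kidney overlapped those of lung and spleen. By the longer transcript it was 9.02 in cerebellum (8.49 to 9.58) and 6.05 in heart (5.56 to 6.59), against 3.76 to 4.27 in the other tissues. The cerebellum ratio was 2.66 times the spleen ratio by the shorter transcript and 2.40 times by the longer one. By the reads beyond the shorter transcript, however, the ratio was 4.46 in cerebellum (4.11 to 4.84), 4.47 in kidney (4.14 to 4.82), and 4.95 in heart (4.44 to 5.51), with lung at 3.72 (3.52 to 3.93) and spleen at 3.44 (3.25 to 3.65). On that measure, which takes all exons and reads of the shorter transcript as part of the longer one, cerebellum did not stand apart from kidney and heart. The high ratio in cerebellum was thus present by both transcripts and absent by the reads beyond the shorter one. If reads are shared as assumed, most of the 11908 cerebellum reads of the longer transcript are the 10678 of the shorter one. The 2 transcripts are then not separate measures.

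**Figure D3:**
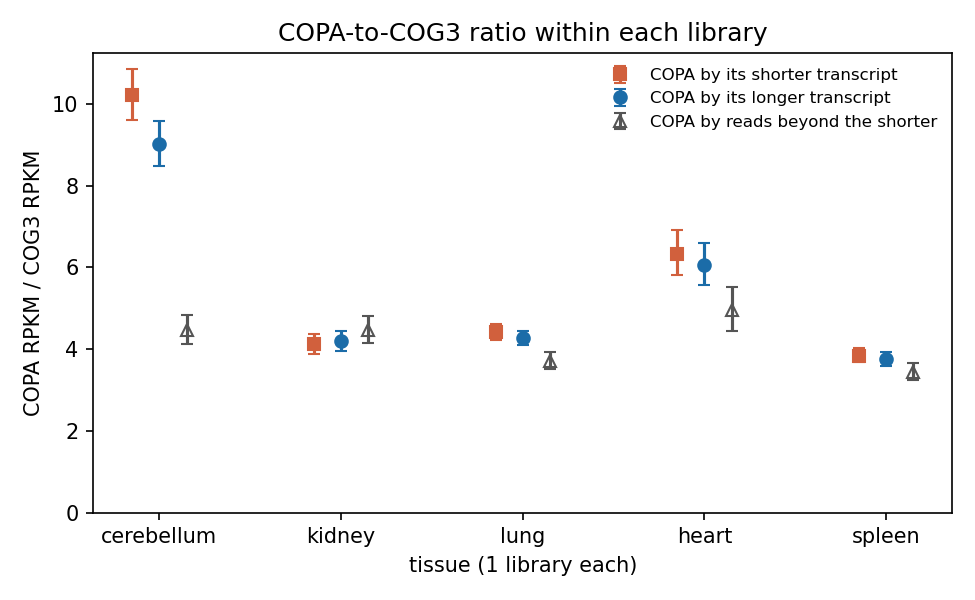
Ratio of COPA RPKM to COG3 RPKM within each of the 5 libraries, with exact conditional 95% intervals of the read numbers as bars. Squares and circles use the shorter and the longer COPA transcript and put cerebellum highest, at 10.2 and 9.02. Triangles use the reads of the longer transcript beyond the shorter one and put cerebellum (4.46) beside kidney (4.47).

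The partners of COPA in the coat were taken from a list of 9 genes, all of which were matched by symbol. COPB2 and COPE form the outer layer of the coat together with COPA, and COPB1, ARCN1, COPG1 or COPG2, and COPZ1 or COPZ2 form the layer that binds cargo and the small GTPase ARF1. On the deposited scale 8 of 9 members were lowest in heart, as were 52.6% of all expressed genes, whereas under the 3 other scalings at most 1 member was, beside 20.3% to 24.9% of the genes. The exception was COPZ2, which was highest there, at 6.20 RPKM, and at least 2-fold above cerebellum (2.36) and spleen (1.58). In these directions 13.8% and 9.35% of the expressed genes were called, and the ratios were larger under the other scalings. The highest tissue was at least 2-fold above the lowest for 8 of the 9, where 95.1% of all expressed genes were called. COPE, at 20.4 RPKM in heart and 39.5 in spleen, was the member below 2-fold. Lung exceeded heart by 2-fold at 6 of 9 members, COPA among them, beside 63.7% of all expressed genes, with a median log2 ratio of 1.26 against 1.48 over all genes, and at 0 of 9 under upper quartile or median-of-ratios scaling.

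Ratios between coat genes of the same library differed over the tissues. COPG2 was at least 2-fold higher in cerebellum than in kidney and lung, with 11.5 RPKM in cerebellum and 7.71 in spleen, against 5.53 in lung, 4.18 in kidney and 4.03 in heart. The background share in these directions was 20.3% and 16.2%. Its paralog COPG1 was highest in kidney, at 27.0 RPKM, with 24.6 in lung, 21.7 in spleen, 17.6 in cerebellum and 8.83 in heart. The ratio of COPG1 to COPG2 was therefore 1.53 in cerebellum (1.46 to 1.61) and 6.45 in kidney (5.93 to 7.03), with 2.19 in heart, 2.81 in spleen and 4.45 in lung between them. COPB1 was the opposite case, with 14.8 RPKM in spleen, 13.6 in kidney and 12.8 in lung, against 5.66 in cerebellum and 4.62 in heart. Along with COPZ2 it was at least 2-fold higher in kidney than in cerebellum, where the background share was 30.3%. COPG2 in cerebellum over kidney and lung, and COPB1 in kidney over cerebellum (2.01 to 2.10), stayed past 2-fold under the 3 other scalings. COPZ2 in kidney over cerebellum did not, at 1.85 to 1.93. Under upper quartile or median-of-ratios scaling, 0 of 9 coat genes were past 2-fold in lung or spleen over cerebellum. The same held for each tissue over heart. The ratio of COPA to COPB1 was 5.70 in cerebellum (5.41 to 6.02) and 1.84 in kidney (1.75 to 1.94), with spleen at 2.13, lung at 2.61 and heart at 3.01. The paralogs COPZ1 and COPZ2 spanned the widest range of these ratios, COPZ1 being 2.95 times COPZ2 in heart and 31.4 times in spleen, with kidney at 6.75, lung at 11.6 and cerebellum at 12.7. The ratio of COPA to ARCN1, the delta subunit, varied less, between 0.92 in kidney and 1.22 in cerebellum. Both COPA ratios used the shorter transcript and were not computed on the reads beyond it. By those reads COPA had 14.1 RPKM in cerebellum and 27.3 in kidney, where ARCN1 had 26.4 and 27.4. The high place of cerebellum in the ratio to ARCN1 thus depended on the transcript measure. COPB1 had 5.66 RPKM in cerebellum and 13.6 in kidney, so by these levels COPA exceeded COPB1 further in cerebellum than in kidney. How far reads of COPG1 and COPG2 could be exchanged between these related genes is not given in the sources used here.

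COPA was compared with the median of the 8 other coat genes in the same library, a measure that was chosen after the values had been seen. COPA was at 2.22 times this median in cerebellum and 1.71 times in heart, with 1.56 times in lung, 1.36 times in spleen and 1.07 times in kidney. By RPKM it ranked 1 among the 9 coat genes in cerebellum, 3 in lung and in heart, 4 in spleen and 5 in kidney. By its longer transcript it was at 1.96 times the median in cerebellum and at 1.09 times in kidney. By the reads beyond the shorter transcript it was at 0.97 in cerebellum, the lowest of the 5 tissues, with 1.16 to 1.34 in the others.

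**Figure D4:**
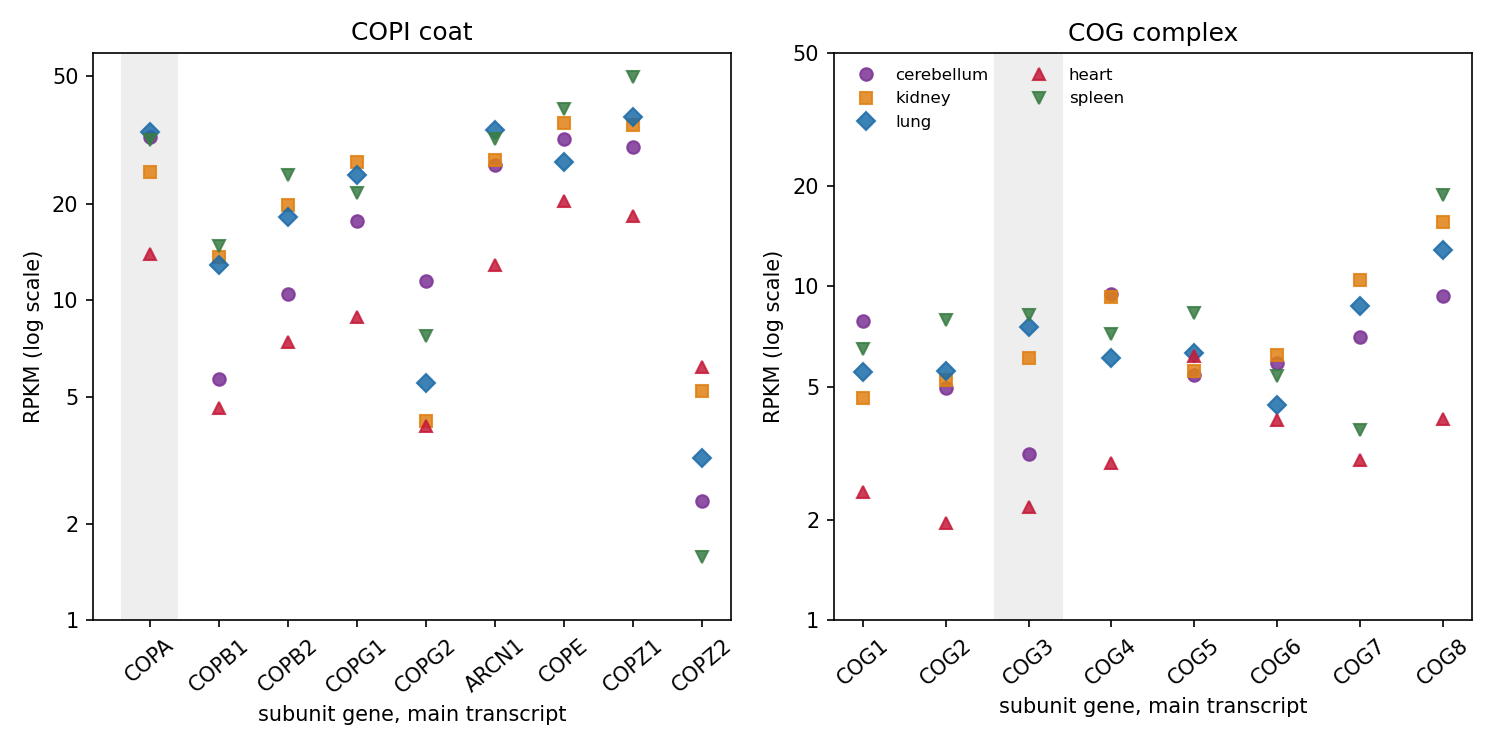
RPKM (log scale) of the COPI coat genes (left) and the COG complex genes (right) in the 5 tissues, 1 point per library, each gene by its transcript with the highest summed RPKM. COPA and COG3 are shaded. In cerebellum COPA had the highest RPKM of the 9 coat genes (32.3) and COG3 the lowest of the 8 COG genes (3.16).

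All 8 subunit genes of the COG complex were matched. COG1, COG2 and COG4 form a lobe of the tether with COG3, and COG5 to COG8 form the other lobe. Heart was the lowest tissue for 7 of the 8 genes as deposited, beside 52.6% of all expressed genes. Under each of the other scalings it was the lowest for 2 of the 8, beside 20.3% to 24.9% of all expressed genes. COG5 was the exception as deposited, with 5.45 RPKM in cerebellum and 6.21 in heart. Lung was at least 2-fold above heart at 6 of 8 members, beside 63.7% of all expressed genes, with a median log2 ratio of 1.31 against 1.48 over all genes, and at 0 of 8 under upper quartile or median-of-ratios scaling. Under the 3 other scalings COG3 was the only member with its lowest level in cerebellum. As deposited, COG3 was the only COG gene at least 2-fold higher in lung than in cerebellum, and spleen exceeded cerebellum by 2-fold at COG3 and at COG8 (9.35 RPKM in cerebellum and 18.8 in spleen), where 38.0% and 37.8% of all expressed genes were called. Under the other scalings neither gene was past 2-fold in these pairs, with COG8 at 1.31 to 1.44. Of the partners in the same lobe, COG1 (7.86 RPKM in cerebellum and 5.54 in lung) and COG4 (9.53 and 6.10) had the lower level in lung, and COG2 (4.98 and 5.58) had the higher level there, as COG3 did.

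Relative to the median of the 7 other COG genes of the same library, COG3 was at 0.45 in cerebellum and 0.72 in heart, against 0.97 in kidney, 1.14 in spleen and 1.24 in lung. Its rank among the 8 genes was 8 in cerebellum, 7 in heart, 5 in kidney and 3 in lung and in spleen. With the longest transcript of each COG gene instead of the most highly expressed one, COG3 was at 0.54 in cerebellum and 0.90 to 1.37 elsewhere. With the summed transcripts, which can count shared reads more than once, COG3 was at 0.32 in cerebellum and 0.35 to 0.59 elsewhere. Cerebellum was the lowest tissue on all 3 measures, with heart close to it on the last. COPA, by either transcript, thus stood above the median of its partners in every tissue and furthest above it in cerebellum. By the reads beyond the shorter transcript it was at 0.97 in cerebellum. With the most highly expressed transcript of each gene, COG3 stood below the median of its own partners in cerebellum, heart and kidney, and furthest below it in cerebellum. No replicate sets an error on these values.

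The adenosine deaminases that edit RNA were listed beside the member genes. ADAR, which encodes ADAR1, had 43.9 RPKM in spleen and 31.8 in lung, against 19.8 in kidney, 16.9 in cerebellum and 5.69 in heart. ADARB1, which encodes ADAR2, had 21.4 RPKM in cerebellum and 13.2 in lung, against 2.66 in spleen, 1.71 in kidney and 0.61 in heart. The tissue order of COG3 as deposited was that of ADAR, but under the other scalings COG3 was lowest in cerebellum. COPA by its longer transcript shared its order with neither enzyme. By its shorter transcript as deposited, COPA had the order of ADARB1 except for lung and cerebellum, where the COPA ratio was 1.04. By the reads beyond the shorter transcript it had the order of ADAR, with overlapping intervals for spleen, lung and kidney. Under the other scalings COPA was not lowest in heart by either transcript. A link of either gene to these enzymes was not tested. ADARB2, a brain paralog without known editing activity, had 0.75 RPKM in cerebellum, and no other tissue exceeded 0.0689. The ratio of ADAR to ADARB1 ran from 0.79 in cerebellum (0.77 to 0.82) to 16.5 in spleen (15.4 to 17.7), with lung at 2.41, heart at 9.37 and kidney at 11.6.

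The files hold transcripts of other genes beside or within the spans of both members. A transcript of 113 bp within the span of COPA (ENSMMUG00000024228) had at most 4 reads in a library, and a transcript of 471 bp that overlaps the start of COG3 (ENSMMUG00000015666) had at most 2. The nearest neighbour of COPA was NCSTN, which encodes nicastrin, a subunit of gamma-secretase, and whose closest transcript starts 4 bp beyond the end of COPA. That transcript had 39.6 RPKM in lung, 33.2 in spleen and 26.3 in kidney, against 16.5 in cerebellum and 11.6 in heart. As deposited, lung was the highest and heart the lowest tissue for both neighbours, and in cerebellum NCSTN was below its kidney level. COPA was above its kidney level there by either transcript, and below it by the reads beyond the shorter transcript (14.1 against 27.3 RPKM).

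The genes most like each member were ranked by the root mean square difference of their centred log2(RPKM + 1) over the 5 tissues, among 7888 genes with at least 1 RPKM in every tissue. For COPA these were ZNF410 (distance 0.024), ZNF577 (0.031), UBR7 (0.045), ST7L (0.051) and ZKSCAN5 (0.057), against a median distance of 0.512 over all genes. ZNF410, a zinc finger gene, followed COPA at a lower level, with 9.63 RPKM in lung, 9.50 in spleen and 9.33 in cerebellum, against 7.14 in kidney and 3.63 in heart. For COG3 they were LSG1 (0.058), NSA2 (0.063), ENSMMUG00000007050 (0.063), PKN2 (0.064) and SOS1 (0.064), with a median of 0.554. LSG1, a GTPase gene of ribosome maturation, had 7.29 RPKM in spleen, 7.13 in lung and 6.10 in kidney, against 3.07 in cerebellum and 1.91 in heart. COPA and COG3 were 0.430 apart, at rank 2987 from the side of COPA and rank 2540 from the side of COG3. With log2(RPKM + 0.1), without spleen or under upper quartile scaling, 2 to 3 of the 5 genes named for COPA and 1 of the 5 named for COG3 stayed among the nearest.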

How the data were processed

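Strand-specific poly(A)-positive RNA was sequenced as paired reads of 90 bp, in 1 library per tissue. BWA served as the study's aligner, against rheMac2 and Ensembl transcripts, and the submitters' processing notes name TopHat 1.2.0. The tool that counted the reads is not given in the sources used here. The counts of reads deposited by the authors carry no normalization. The deposited RPKM values scale them to exon length and properly mapped reads, and every value could be recomputed. Starts are written 1-based.

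Symbols came from a table of Ensembl identifiers and matched 15556 of 28633 identifiers (54.3%). Each gene was represented by its transcript with the highest RPKM summed over the 5 tissues. Folds were computed on RPKM + 0.1 for lists and for all genes with at least 1 RPKM in 1 tissue or more, and on read numbers for COPA and COG3. With 1 library per tissue no test was made.

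The named genes were COPA, COG3, the fixed lists (COPI coat, COG complex, COPI recruitment and cargo, COPII coat, Golgi SNAREs and tethers, editing enzymes, tissue markers) and the 5 genes most like each member. The rule for the members uses no measured value, but the members and lists were proposed with earlier results of these data known. Of the lists, 10 of 15 recruitment and cargo genes, 11 of 12 COPII genes and 15 of 18 SNARE and tether genes were matched.

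Alternatives were upper quartile scaling, size factors from DESeq2 1.42.0, TMM factors from edgeR 4.0.16, other transcripts for a gene, other pseudocounts, no filter and tissues left out. Scripts ran in Python 3.11.15 and R 4.3.3. The 2-fold call was tested on simulated counts for cerebellum and lung with counting error only. These counts held no spread between animals and no scaling shift between libraries.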

Additional observations from a re-analysis of the deposited data

How the results depend on the processing

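No paired analysis was possible because each tissue has 1 library and no test was made. Upper quartile, median-of-ratios and TMM scaling, in this order, gave highest-to-lowest ratios of 1.48, 1.57 and 1.54 for COPA (2.41 as deposited) and 1.90, 1.69 and 1.80 for COG3 (3.74 as deposited), and the lowest tissue was no longer heart. Without heart the ratios were 1.33 and 2.60, without spleen 2.41 and 3.46, and by the reads of the longer COPA transcript beyond the shorter COPA was at 2.61. In the same order, COPA turned to 0.82, 0.70 and 0.74 for lung over cerebellum, 0.89, 0.81 and 0.83 for kidney over heart, and 0.92, 0.77 and 0.87 for spleen over heart, and COG3 to 0.82, 0.75 and 0.79 for cerebellum over heart. Median-of-ratios scaling alone also turned COPA to 0.95 for spleen over kidney and COG3 to 0.97 for lung over kidney. It gave 0.85 for COPA in lung over heart, where TMM gave 0.95, and upper quartile scaling gave 0.98 for COG3 in spleen over lung.

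COPI coat members past 2-fold in any pair numbered 8 as deposited, 3 under upper quartile and 4 under median-of-ratios scaling, and COG members 6 as deposited, 2 under upper quartile and 5 under median-of-ratios scaling. The COPA-to-COG3 ratio from summed transcripts, which can count shared reads more than once, was 19.2 in cerebellum and 12.4 in heart. It was 8.69 in lung, 8.31 in kidney and 7.60 in spleen. By the longest transcript the ratio was 9.02 in cerebellum. By the reads beyond the shorter transcript it was 4.95 in heart, 4.47 in kidney and 4.46 in cerebellum, with lung at 3.72 and spleen at 3.44. As a share of reads, the shorter COPA transcript took 47.3% in cerebellum and 45.3% in heart, with 45.0% for lung, 44.7% for spleen and 43.7% for kidney. COPA over the median of the other coat genes turned to 0.97 in cerebellum by the reads beyond the shorter transcript. COG3 over the median of the other COG genes turned to 1.01 in kidney by the longest transcripts and to 0.59 in lung and 0.52 in spleen by summed transcripts. The scaled tissue pairs, the reads beyond the shorter transcript and the transcript choices within the complexes were alternatives chosen after seeing the data. Beyond scaling and transcript choice, the causes were not tested.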

Other observations

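The other Golgi genes of the fixed lists had ranges over the tissues both narrower and wider than those of COPA and COG3. Highest-to-lowest ratios on RPKM + 0.1 were compared over the recruitment and cargo, COPII coat, and SNARE and tether lists. They ran from 1.86 for SEC23A, a subunit of the COPII coat, to 34.6 for SEC24D. The COPII coat genes act in the step from endoplasmic reticulum to Golgi. Of the 11 matched, 9 were lowest in heart as deposited, beside 52.6% of all expressed genes. Under each of the other scalings 4 were, beside 20.3% to 24.9% of all expressed genes. As deposited, 10 of the 11 were past 2-fold between their highest and lowest tissue. SEC24D, a cargo-binding subunit of this coat, had 7.01 RPKM in spleen and 4.60 in lung, against 1.88 in kidney, 1.45 in heart and 0.11 in cerebellum. SEC31B had its highest level in cerebellum (15.3 RPKM), followed by kidney with 7.17, whereas its paralog SEC31A was highest in lung, at 32.7 RPKM. The KDEL receptors, whose retrieval from the Golgi uses COPI vesicles, had lower levels in cerebellum than in lung. KDELR2 had 8.65 RPKM there and 34.2 in lung, and KDELR3 had 0.36 there and 5.55 in lung. Of the 10 matched genes of COPI recruitment and cargo, 9 were past 2-fold, and of the 15 matched Golgi SNAREs and tethers, 13 were. GOSR2, a SNARE of the Golgi, had 10.8 RPKM in cerebellum and 43.7 in kidney. The background share past 2-fold in any pair was 95.1%, so the counts past 2-fold do not set the lists apart from other genes.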
